A study of Homo sapiens with 80 samples.

Results

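Genes of sterol and fatty acid synthesis were followed in U2OS cells, a human osteosarcoma line with little glucocorticoid receptor (GR) of its own, that expressed 1 of 5 GR alleles. They were taken from a list of 32 genes in 4 roles that was drawn up with earlier results of these data known. A gene was kept when a probe that carried its symbol was detected (detection p under 0.05) on at least 4 of the 80 arrays, and the brightest such probe stood for it. This left 27 of the 32 genes, among 12547 genes measured in all. Of 7 mevalonate pathway genes 5 were measured, of 11 sterol branch genes 8, of 6 genes of regulation and transport 6, and of 8 fatty acid synthesis genes 8. IDI1, FDPS, FDFT1, HSD17B7 and DHCR7 had no probe under their symbol and were not analysed here. SREBF2 was detected on 79 arrays, INSIG1 on 76, ACAT2 on 52 and STARD4 on 33, and the other genes on all 80.

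The alleles were GRalpha, the common receptor form, GRgamma, whose DNA-binding domain gains an arginine by splicing, A477T, altered where 2 such domains pair, 30iiB, altered in activation function AF1 of the N terminus, and E773R, altered in AF2, which binds coactivators once hormone is bound. Cells of each allele, grown with 5% fetal bovine serum, received dexamethasone, a synthetic glucocorticoid, at 100 nM for 2, 4 or 24 h, or only the vehicle ethanol for 4 h, called 0 h here. The 2 h and 24 h arms therefore differ from their control in time as well as in hormone. Each of the 20 groups held 4 biological replicates per the labels. The p-values rest on a spread among replicates that was pooled over all 20 groups, not on that of the compared groups alone. The sources used here do not say whether an allele's cells descend from 1 clone, so allele and cell line cannot be told apart.

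Cells build cholesterol from acetyl-CoA through mevalonate, squalene and lanosterol, and fatty acids through malonyl-CoA. Both routes are controlled by SREBP transcription factors, which SREBF1 and SREBF2 encode. When sterols are scarce, SCAP escorts the SREBPs to the Golgi, where they are cut and released to the nucleus. When sterols are plentiful, INSIG1 and INSIG2 hold SCAP in the endoplasmic reticulum, and the pathway's genes are transcribed less. SREBF1 is best known for driving fatty acid genes and SREBF2 for sterol genes. Serum in the medium supplies lipoprotein cholesterol, which lowers this drive.

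The 4 genes whose level changed in GRalpha cells by 24 h were NSDHL, SREBF1, HMGCS1 and SCD, and their promoters are shown for that reason. Each window runs from 250 bases before to 50 bases after a start site in RefSeq (GRCh38.p14), 5′ to 3′ along the gene. NSDHL lies at chrX:152830813-152831112 on the plus strand, SREBF1 at chr17:17836937-17837236 on the minus strand, HMGCS1 at chr5:43313363-43313662 on the minus strand (the upstream of its 2 windows) and SCD at chr10:100346983-100347282 on the plus strand. Capitals mark the CCAAT box, the site of the factor NF-Y that commonly works beside SREBPs, read on either strand.
NSDHL: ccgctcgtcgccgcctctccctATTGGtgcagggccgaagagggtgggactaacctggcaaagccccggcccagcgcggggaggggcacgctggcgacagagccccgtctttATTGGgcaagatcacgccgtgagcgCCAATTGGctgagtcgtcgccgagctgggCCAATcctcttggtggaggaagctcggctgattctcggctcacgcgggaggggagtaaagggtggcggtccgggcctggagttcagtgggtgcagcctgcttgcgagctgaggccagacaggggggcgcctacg
SREBF1: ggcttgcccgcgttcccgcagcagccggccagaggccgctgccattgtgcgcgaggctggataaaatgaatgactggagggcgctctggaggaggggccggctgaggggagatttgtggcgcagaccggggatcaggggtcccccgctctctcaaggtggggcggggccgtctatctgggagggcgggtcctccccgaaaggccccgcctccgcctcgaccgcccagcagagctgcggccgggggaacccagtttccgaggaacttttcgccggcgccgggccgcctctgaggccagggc
HMGCS1: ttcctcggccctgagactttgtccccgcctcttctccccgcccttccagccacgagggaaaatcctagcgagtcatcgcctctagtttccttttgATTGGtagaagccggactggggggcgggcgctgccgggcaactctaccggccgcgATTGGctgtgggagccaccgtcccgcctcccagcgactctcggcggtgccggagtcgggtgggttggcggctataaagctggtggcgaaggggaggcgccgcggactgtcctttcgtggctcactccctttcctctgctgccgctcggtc
SCD: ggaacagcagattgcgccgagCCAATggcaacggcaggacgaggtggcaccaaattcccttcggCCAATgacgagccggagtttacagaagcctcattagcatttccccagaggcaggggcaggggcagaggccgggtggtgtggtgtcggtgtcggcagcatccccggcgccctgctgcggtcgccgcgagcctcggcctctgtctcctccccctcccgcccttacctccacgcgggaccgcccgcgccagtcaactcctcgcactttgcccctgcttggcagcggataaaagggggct
Windows were found for 24 of the 27 genes (31 windows), and none was used for ACAT2, FASN and SQLE. NSDHL held 5 CCAAT matches, of which a pair overlaps on opposite strands, HMGCS1 and SCD held 2 each and SREBF1 held 0. Of the 31 windows 19 (61.3%) held CCAAT, against 34.6% of 35116 windows of all genes. The E-box CACGTG stood in 5 (16.1%, against 7.26%) and the sterol regulatory element TCACNCCAC in 1, that of SREBF2 (3.23%, against 1.13%). Both strands were searched, and matches may overlap. The palindromic glucocorticoid response element stood in 0 of the 31, against 0.39% of all windows. These are matches of letters in a short window and were not tested.

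Changes below are log2 differences between group means of normalised intensity, each with the SE of a limma model over all 80 arrays (n = 4 arrays a group). A change was called where its p, adjusted after Benjamini and Hochberg over all 12547 genes, was under 0.05. The median raw signal of an array ranged from 82 to 925.75, and 12233 to 17333 probes were detected. There were 10 slides of 8 arrays each, and no slide held more than 1 array of the same group. E773R 4 h replicate 2 and 30iiB 2 h replicate 3 correlated least with their groups (0.902 and 0.914, against 0.933 to 0.986 for the others), and results that rest on them are given without them too. PDK4, a strong glucocorticoid target, rose in all 15 responses, between 4.16 and 8.10. TSC22D3, another target, rose in GRalpha, GRgamma and 30iiB cells at all times (2.01 to 3.23) and in E773R at 4 and 24 h (1.70 and 2.41), and in A477T it was not called (0.59 to 1.18). NR3C1, the GR gene itself, did not differ by a call between the alleles and GRalpha at 0 h (-1.03 to -0.24), but whether its probe reads the introduced receptor is not known. The mesenchymal and bone markers VIM, COL1A1, RUNX2 and ALPL were detected on all 80 arrays, FN1 on 78 and COL1A2 on 16. Of 9 measured markers of epithelium, blood, endothelium and liver, KRT5 and ALB were detected on 9 arrays, CD14 on 16 and PTPRC on 18, and the others on 49 to 79.

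Across the 15 responses, 8 of the 27 genes were called at least once. At 24 h, GRalpha had 4 of 27 called (14.8%, against 17.9% of all genes), GRgamma 4 (against 17.5%), A477T 2 (7.41%, against 9.25%), 30iiB 4 (against 16.4%) and E773R 2 (against 5.64%). These shares lie near or below those of all genes, and the number of calls is therefore no result about the group. At 4 h each allele had 1 call, that of NSDHL (3.7%). The share of all genes was then 4.73% (GRalpha), 4.35% (GRgamma), 3.33% (A477T), 4.42% (30iiB) and 1.14% (E773R). At 2 h NSDHL was the 1 call in GRgamma (against 1.69%) and in 30iiB (against 2.41%). None was called at 2 h in GRalpha (against 1.79%), A477T (against 1.88%) or E773R (against 0.359%) by limma, with 1, 2 and 0 genes at an unadjusted p under 0.05. The median change of the 27 genes was -0.25 at both 4 and 24 h in GRalpha, where all genes had -0.03 and -0.01. In the variants the median at 24 h was -0.11 (GRgamma), 0.05 (A477T), -0.03 (30iiB) and 0.08 (E773R). The medians of GRgamma and 30iiB changed sign under other processing (from -0.19 to 0.14 and from -0.18 to 0.06). The processing bears on the single calls: of the 40 calls over all comparisons, 18 held when arrays were scaled to the same median in place of quantile normalisation, 20 when a model used only the groups compared, and all 40 with slide as a block. The 13 that held under every alternative run were NSDHL at 24 h in the 5 alleles, at 4 h in GRgamma and 30iiB and between 4 and 24 h in 30iiB, SREBF1 at 24 h in GRalpha and 30iiB, AACS at 24 h in GRgamma, and MSMO1 (A477T) and LSS (E773R) at 0 h. No call reversed its sign.

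Markers of other cell types moved with 24 h of hormone as well. Of the 9, GRalpha cells had 3 called lower at 24 h (CDH1, KRT14, VWF), GRgamma 1 (CDH1), 30iiB 3 (CDH1, KRT14, VWF) and E773R 2 (CDH1, VWF), and A477T had 4 called (CDH1, KRT14 and VWF lower, ALB higher). CDH1 and, where called, KRT14 were detected on 0 of 4 arrays at 24 h, as was VWF in GRalpha and A477T, and ALB on 0 of 4 A477T arrays at 0 h, so no size is given for these. VWF was detected on 1 of 4 arrays at 24 h in 30iiB (-3.01) and on 2 of 4 in E773R (-2.21). Their summed normalised intensity on an array ran from 787 to 1180 at 0 h and from 558 to 684 at 24 h in GRalpha, from 1320 to 1890 and from 452 to 665 in 30iiB, and from 645 to 1090 and from 631 to 847 in GRgamma. In A477T it ran from 850 to 1070 and from 584 to 869, and in E773R from 749 to 1190 and from 549 to 633. The part of this shift in the 24 h results below was not tested. In bulk RNA, fewer cells of a type and less RNA per cell cannot be told apart.

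**Figure D1:**
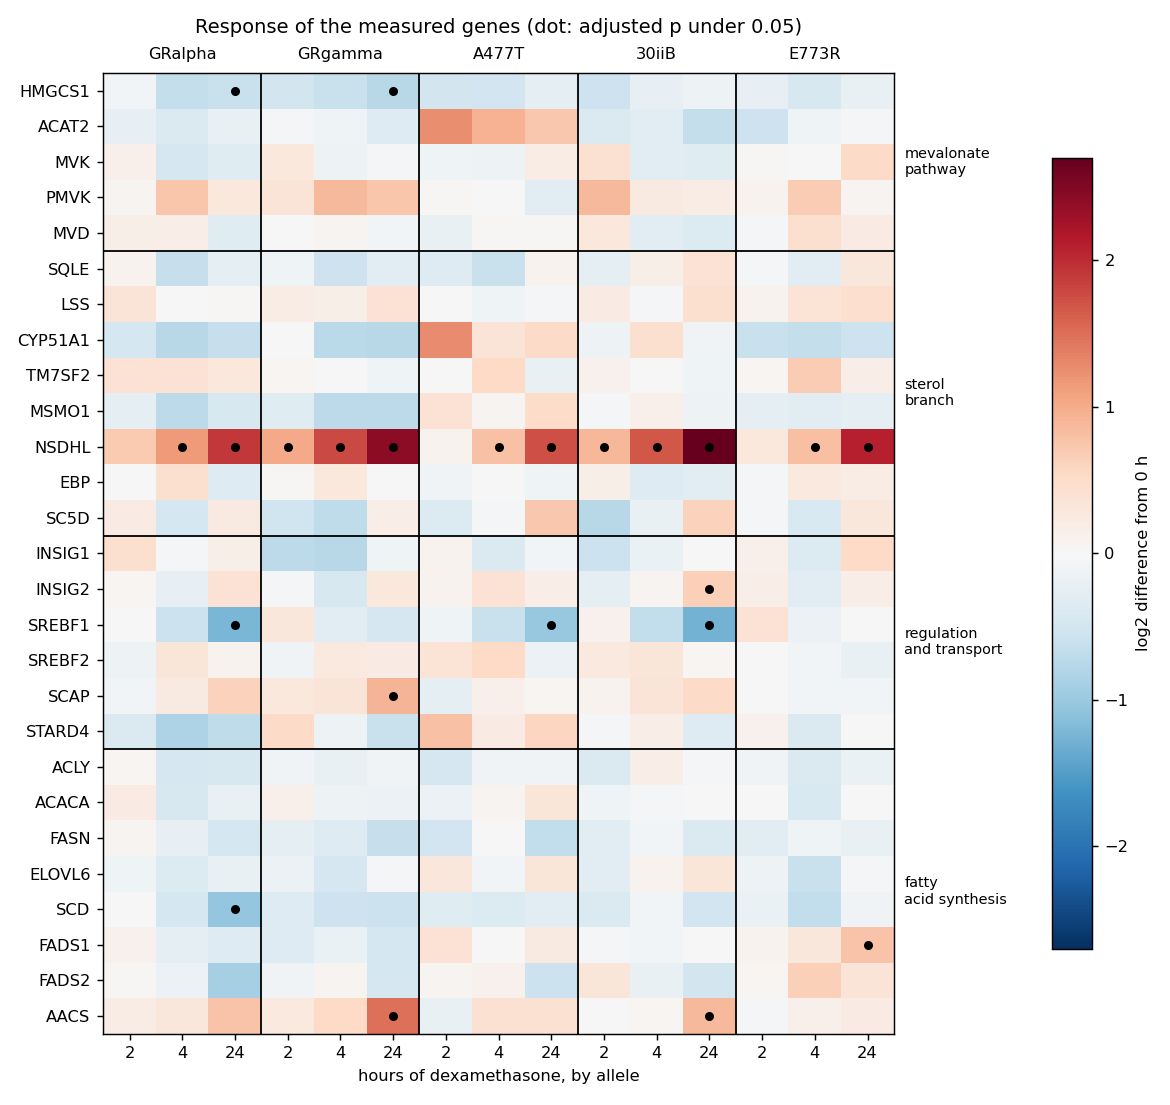
Heat map of the log2 difference from 0 h for the 27 measured genes (rows, grouped by role) at 2, 4 and 24 h of dexamethasone in the 5 alleles (columns), n = 4 arrays a group. A black dot marks an adjusted p under 0.05: NSDHL carries 12 dots, and dots on other genes lie in 24 h columns.

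NSDHL, a dehydrogenase that helps remove the C4 methyl groups of sterol intermediates, rose in all 5 alleles. In GRalpha cells its log2 level was 12.10, 12.40, 11.39 and 11.48 on the 0 h arrays (mean 11.84 ± 0.49, SD, n = 4). It was 12.83, 13.19, 13.13 and 12.83 at 4 h and 13.74, 13.70, 13.92 and 13.62 at 24 h. All 24 h arrays lay above all 4 h arrays, and these above all 0 h arrays. The rise was 2.22-fold at 4 h (1.15, SE 0.21, adjusted p = 4.5e-05) and 3.74-fold at 24 h (1.90, SE 0.21, adjusted p = 2.0e-11). At 2 h the difference was 0.70 and was not called, although with slide as a fixed block it was (0.64, adjusted p = 0.031).

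GRgamma cells had NSDHL at 11.42, 11.65, 11.42 and 11.44 at 0 h and at 14.04, 13.78, 13.75 and 14.01 at 24 h. The rise was 1.02 at 2 h (adjusted p = 0.001), 1.78 at 4 h (adjusted p = 1.1e-09) and 2.41 at 24 h (5.33-fold, adjusted p = 4.3e-15). In 30iiB cells the 0 h arrays read 11.33, 11.90, 12.03 and 11.38 and the 24 h arrays 14.43, 14.54, 14.05 and 14.36. This was the largest of the 5 rises at 24 h, 6.43-fold (2.69, SE 0.21, adjusted p = 3.5e-17), after 0.90 at 2 h (adjusted p = 0.0042, and 0.84 without the 2 h array of low correlation) and 1.67 at 4 h (adjusted p = 5.9e-09). Its excess over the GRalpha rise was 0.78 (95% interval 0.19 to 1.37, adjusted p = 0.82) and was not called, so the order of these rises is not shown beyond the error. With the values of the authors' series matrix that excess was 0.72 (adjusted p = 0.022).

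NSDHL was also called from 4 h on in A477T and E773R cells. A477T arrays read 11.44, 11.73, 11.58 and 11.84 at 0 h and 11.53, 11.74, 11.76 and 11.93 at 2 h, so the groups overlapped (0.10, not called). At 4 h they read 12.25, 12.12, 12.64 and 12.72 (rise 0.79, SE 0.21, adjusted p = 0.015) and at 24 h 13.18, 13.13, 13.39 and 13.88 (1.75, adjusted p = 6.1e-10). The 4 h call was lost without 0 h replicate 1 (0.72), 4 h replicate 3 (0.72) or 4 h replicate 4 (0.69), with adjusted p from 9.6e-08 to 0.86 over its alternatives. E773R arrays read 11.04, 11.48, 11.34 and 11.90 at 0 h, 11.84, 12.35, 12.37 and 12.48 at 4 h and 13.81, 13.41, 13.07 and 13.83 at 24 h. The 4 h arrays overlapped those of 0 h by 1 array (rise 0.82, adjusted p = 0.026), and the 24 h arrays did not overlap them (2.09, 4.26-fold, adjusted p = 3.5e-12). The 4 h call in E773R was lost without any 1 of 6 arrays, namely 0 h replicates 1 (0.69), 2 (0.83) and 3 (0.79) and 4 h replicates 2 (0.79), 3 (0.78) and 4 (0.75), and without the pair of low-correlation arrays (0.79), with adjusted p from 1e-06 to 1 over its alternatives. That A477T and E773R differ from GRalpha in timing was not shown, since neither difference of response was called at 2, 4 or 24 h.

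Between 4 and 24 h NSDHL rose again in every allele, by 0.75 in GRalpha cells (adjusted p = 0.0088), 0.64 in GRgamma cells (adjusted p = 0.038), 0.96 in A477T cells (adjusted p = 0.0011), 1.02 in 30iiB cells (adjusted p = 2.1e-04) and 1.27 in E773R cells (adjusted p = 1.1e-05, and 1.30 without the 4 h array of low correlation). The GRgamma call was lost without 24 h replicate 1 (0.59), 2 (0.67) or 4 (0.60) or 4 h replicate 1 (0.52), 2 (0.64) or 3 (0.65), with adjusted p from 4.6e-05 to 0.32 over its alternatives. Where 0 h and 24 h arrays of an allele shared a slide (11 pairs over the 5 alleles), NSDHL was higher at 24 h in 11 of 11, by 1.52 to 2.66. At 4 h it was higher in 8 of 8 such pairs, by 0.36 to 1.86. NSDHL accounted for 17 of the 40 calls that the 27 genes received over all 36 comparisons.

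**Figure D2:**
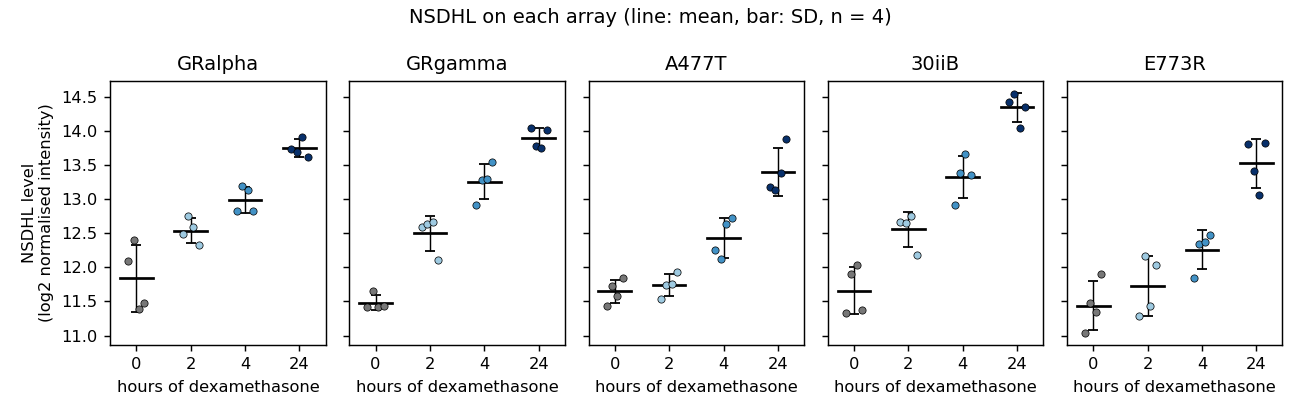
Log2 normalised intensity of NSDHL on each of the 80 arrays, by allele (panels) and hours of dexamethasone; points are arrays, lines means and bars SD (n = 4). The 24 h arrays lie between 13.07 and 14.54, above every 0 h array (11.04 to 12.40).

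HMGCS1, which makes the HMG-CoA that mevalonate is formed from, was the 1 mevalonate gene called. GRalpha arrays read 13.97, 14.36, 13.26 and 13.67 at 0 h and 13.59, 13.37, 12.94 and 12.94 at 24 h, with the groups overlapping. It fell by 0.60 (SE 0.20, adjusted p = 0.028). That call was lost without 0 h replicate 1 (-0.55), 0 h replicate 2 (-0.42), 24 h replicate 3 (-0.51) or 24 h replicate 4 (-0.51), with adjusted p from 0.0013 to 0.43 over its alternatives. In GRgamma, arrays read 13.66, 13.17, 13.46 and 13.62 at 0 h and 13.13, 12.49, 12.64 and 12.67 at 24 h, with no overlap, and HMGCS1 fell by 0.74 (adjusted p = 0.0052). In the other alleles the difference at 24 h was -0.24 (A477T), -0.14 (30iiB) and -0.21 (E773R), and at 4 h, matched in time to the control, it lay between -0.64 in GRalpha (adjusted p = 0.051) and -0.22 in 30iiB. None of these 4 h differences was called in the main limma model, and the 95% interval reached 0 in 30iiB (-0.63 to 0.19). Other limma fits without a block called the GRalpha value, such as that with no background correction (-0.65, adjusted p = 0.03). Same-median scaling and a model of only the compared groups did not call it. The authors' series matrix values gave calls in GRalpha (-0.71, adjusted p = 0.00067), GRgamma (-0.62, adjusted p = 0.0041) and A477T (-0.50, adjusted p = 0.035), and none in 30iiB or E773R. With slide as a fixed block the 4 h values were called in GRalpha (-0.75, adjusted p = 0.013) and GRgamma (-0.63, adjusted p = 0.044). The differences of these responses from that of GRalpha were not called. Within slides, HMGCS1 was lower at 24 h in 10 of 11 pairs and at 4 h in 8 of 8.

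The other mevalonate genes had none of the 40 calls. ACAT2, a thiolase at the entry of the pathway, MVK and PMVK, the kinases that phosphorylate mevalonate, and MVD, the decarboxylase that makes isopentenyl diphosphate, differed at 24 h by -0.64 to 0.74. ACAT2 was detected on 0 of 4 A477T arrays at 0 h, so its value there has only a bound. With slide as a fixed block MVK was called lower in E773R than in GRalpha at 0 h (-0.90, adjusted p = 0.045). With only the compared groups in the model PMVK was called higher in GRgamma at 24 h (0.74, adjusted p = 0.036). For ACAT2 the SE was 0.59, against 0.25 for MVK, so a change in it would have to be larger to be seen.

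The sterol branch other than NSDHL gave no call in any response. At 24 h SQLE, the squalene epoxidase, differed by -0.31 to 0.39 over the 5 alleles (SE 0.29), and LSS, which closes the ring to lanosterol, by -0.04 to 0.46 (SE 0.25). CYP51A1, which removes the C14 methyl group, differed by -0.75 to 0.51 (SE 0.78). MSMO1, the oxidase that works on the same C4 methyl groups as NSDHL, differed by -0.43 (GRalpha), -0.70 (GRgamma, adjusted p = 0.17), 0.50 (A477T), -0.14 (30iiB) and -0.24 (E773R). A second MSMO1 probe, detected on 79 arrays, gave -1.05, -0.91, -0.27, 0.07 and 0.22 in that order, so the probes disagree in sign in A477T, 30iiB and E773R. With slide as a fixed block the GRgamma difference was called (-0.63, adjusted p = 0.042). EBP and TM7SF2, an isomerase and a reductase, stayed between -0.34 and 0.29, and SC5D, the desaturase, between 0.18 and 0.72 (SE 0.34).

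SREBF1 fell at 24 h in GRalpha, A477T and 30iiB. GRalpha arrays read 11.15, 11.36, 10.45 and 10.51 at 0 h, and 9.64, 9.84, 9.32 and 9.74 at 24 h. The groups did not overlap, and the level was 2.36-fold lower (-1.24, SE 0.24, adjusted p = 4.8e-05). A477T arrays fell from 10.67, 10.53, 10.57 and 10.61 to 9.93, 9.73, 9.87 and 8.79, again without overlap (-1.02, 2.03-fold lower, adjusted p = 0.0017). Replicate 4 was the lowest of the 24 h arrays by a wide gap, and the difference over the alternatives ran from -1.13 to -0.69. In 30iiB the arrays read 10.75, 10.04, 10.24 and 11.16 at 0 h and 9.07, 9.57, 9.42 and 9.0 at 24 h (-1.28, 2.43-fold lower, adjusted p = 2.6e-05).

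In the other alleles SREBF1 was not called. GRgamma arrays read 10.51, 10.30, 10.01 and 10.24 at 0 h and 9.71, 9.78, 9.88 and 9.84 at 24 h, all lower than at 0 h (-0.46, adjusted p = 0.2). This GRgamma difference was called with the mean of all probes (-0.53, adjusted p = 0.023) and with the series matrix values (-0.47, adjusted p = 0.019). E773R arrays read 10.61, 10.34, 10.04 and 10.85 and then 10.42, 10.82, 10.29 and 10.30, overlapping throughout (-0.00). A second SREBF1 probe, detected on 80 arrays, gave -1.36, -0.87, -1.17, -1.24 and 0.15 in the order GRalpha, GRgamma, A477T, 30iiB and E773R. At 4 h that probe gave -0.67, -0.70, -0.72, -1.03 and 0.36 in the same order. Another probe was detected on 7 arrays only. On shared slides SREBF1 was lower at 24 h in 11 of 11 pairs, with differences from -2.05 to -0.33, among them both E773R pairs (-0.43 and -0.33), while the difference over all E773R arrays was -0.00.

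SCAP, INSIG2, INSIG1, SREBF2 and STARD4 make up the rest of the regulators. SCAP, the sterol sensor, rose 1.89-fold at 24 h in GRgamma (0.92, SE 0.28, adjusted p = 0.013), from 11.15, 11.88, 12.31 and 10.89 to 12.40, 12.64, 12.28 and 12.59, where the lowest 24 h array lay below the highest 0 h array. That call was lost without 0 h replicate 1 (0.79) or 4 (0.70), with adjusted p from 0.0013 to 0.11 over its alternatives. In GRalpha SCAP differed by 0.62 (adjusted p = 0.13), and the fit with slide blocked gave a call (0.65, adjusted p = 0.046). INSIG2, a retention protein of the reticulum, rose in 30iiB from 9.47, 9.17, 8.84 and 9.31 to 9.91, 9.59, 9.70 and 10.19, without overlap (0.65, 1.57-fold, adjusted p = 0.048). That call was lost without 0 h replicate 2 (0.64), 3 (0.53) or 4 (0.69) or 24 h replicate 1 (0.63), 3 (0.70) or 4 (0.53), with adjusted p from 0.0035 to 0.5 over its alternatives.

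INSIG1, known as a strongly SREBP-driven gene, was called in no response, which ran from -0.75 to 0.54 with an SE of 0.56. Its spread was wide, with 5.43, 6.13, 5.61 and 5.10 on single arrays of GRgamma 2 h (replicate 2), GRgamma 4 h (replicate 3), 30iiB 2 h (replicate 3) and E773R 4 h (replicate 2). The 2 last are the arrays with the lowest correlation to their groups. SREBF2 was tighter (SE 0.24) and its responses lay between -0.19 and 0.54, none of them called. From 4 to 24 h in A477T it was called lower once slide was blocked (-0.76, adjusted p = 0.022). STARD4, a sterol carrier, was detected on 0 of 4 arrays in A477T at 0 h and at 4 h and in E773R at 4 h, and its differences at 24 h in the other 4 alleles were -0.68 to 0.00 (SE 0.61), none of them called.

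Among the fatty acid genes, SCD, the desaturase that makes oleate from stearate, fell 2.06-fold in GRalpha at 24 h (-1.04, SE 0.28, adjusted p = 0.0037). The arrays read 14.37, 14.74, 13.86 and 14.56 at 0 h and 13.41, 13.47, 13.26 and 13.22 at 24 h, so that all 24 h arrays lay below all 0 h arrays. GRgamma arrays read 14.01, 13.73, 14.05 and 14.12 and then 13.59, 13.14, 13.28 and 13.54, also apart (-0.59, adjusted p = 0.15). Slide as a fixed block made that a call (-0.71, adjusted p = 0.043), and slide as a random block did not. It was also called with only the compared groups in the model (-0.59, adjusted p = 0.047) and with the authors' series matrix values (-0.66, adjusted p = 0.0086). The difference was -0.31 in A477T, -0.51 in 30iiB and -0.10 in E773R. On shared slides SCD was lower in 9 of 11 pairs at 24 h and in 8 of 8 at 4 h.

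**Figure D3:**
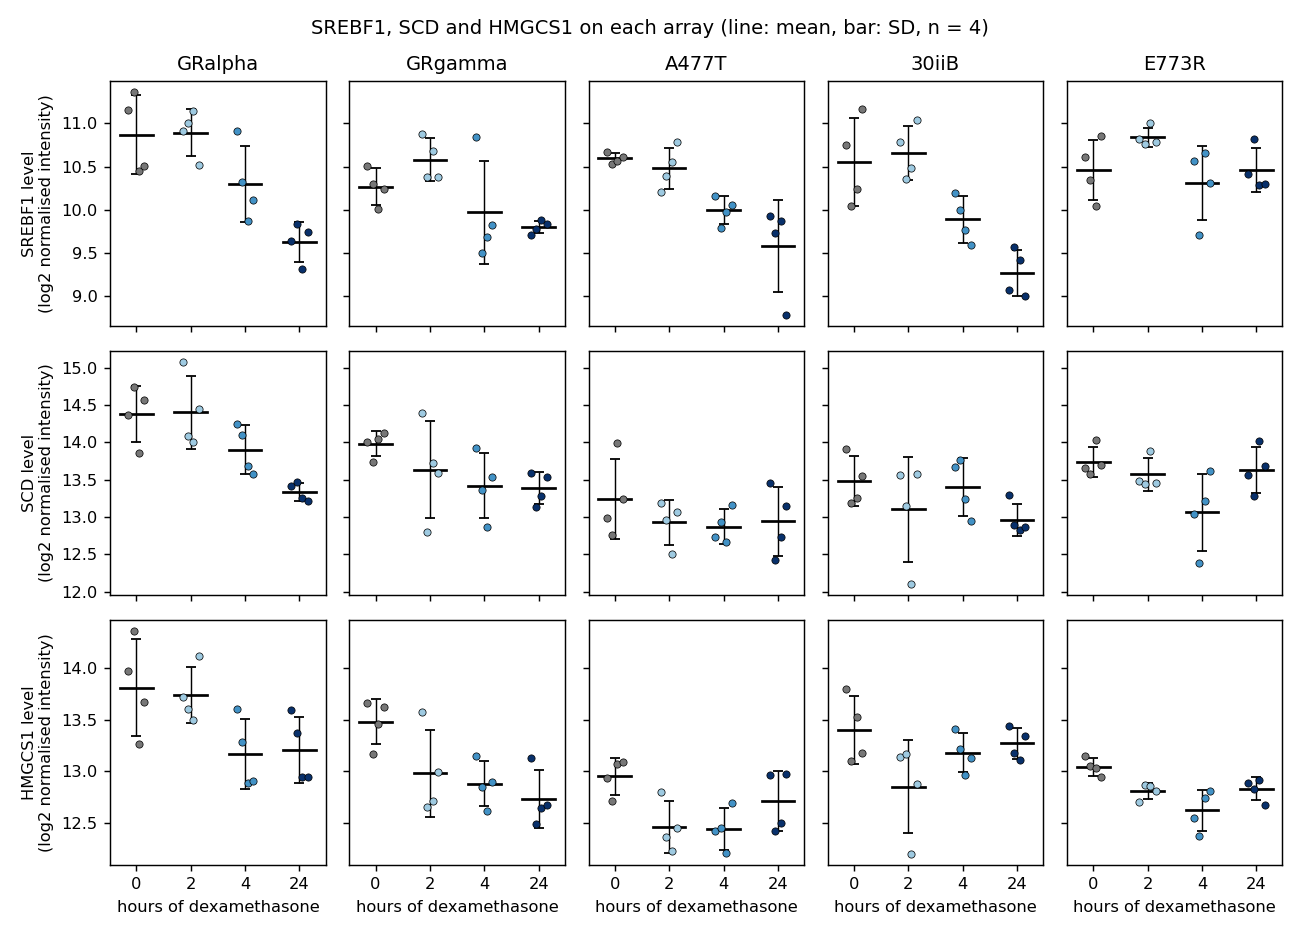
Log2 normalised intensity of SREBF1, SCD and HMGCS1 (rows) on each array by allele (columns) and hours of dexamethasone; points are arrays, lines means and bars SD (n = 4). SREBF1 lies lower at 24 h than at 0 h on every array of GRalpha, GRgamma, A477T and 30iiB, and the E773R arrays overlap.

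AACS, acetoacetyl-CoA synthetase, which feeds ketone bodies into lipid synthesis, rose at 24 h in GRgamma and 30iiB. GRgamma arrays read 9.90, 9.70, 10.60 and 9.39 at 0 h and 11.50, 11.34, 11 and 11.68 at 24 h, without overlap (1.48, SE 0.30, 2.79-fold, adjusted p = 9.1e-05). In 30iiB they read 10.18, 10.57, 10.43 and 9.64 and then 11.12, 11.43, 10.38 and 11.38, with 1 array of 24 h inside the range of 0 h (0.87, 1.83-fold, adjusted p = 0.031). The 30iiB call was lost without 0 h replicate 1 (0.86) or 4 (0.68) or 24 h replicate 1 (0.86), 2 (0.75) or 4 (0.77), with adjusted p from 3.6e-05 to 0.23 over its alternatives. In GRalpha the difference was 0.76 (adjusted p = 0.066), a value that became 0.82 and was called (adjusted p = 0.0029) once slide was a fixed block, and in A477T 0.41 became 0.69 (adjusted p = 0.03). On shared slides AACS was higher at 24 h in 11 of 11 pairs, by 0.25 to 1.61.

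FADS1, the delta-5 desaturase of polyunsaturated fatty acids, rose at 24 h in E773R. E773R arrays read 11.45, 11.74, 11.02 and 11.64 at 0 h and 12.19, 12.30, 12.61 and 11.88 at 24 h, without overlap (0.78, SE 0.22, 1.72-fold, adjusted p = 0.014). The call was lost without 0 h replicate 3 (0.64) or 24 h replicate 3 (0.66), with adjusted p from 0.00019 to 0.21 over its alternatives. GRalpha arrays read 12.02, 12.29, 12.58 and 12.28 at 0 h and 12.22, 12.09, 11.59 and 11.90 at 24 h (-0.34, not called). FADS2, the delta-6 desaturase, differed by -0.89 in GRalpha (adjusted p = 0.054) and by 0.34 in E773R. The GRalpha value of FADS2 became a call when slide was blocked (-0.81, adjusted p = 0.034). FASN, the fatty acid synthase, stayed between -0.66 and 0.08 over all 15 responses (SE 0.38), ACACA, the acetyl-CoA carboxylase, between -0.43 and 0.33 (SE 0.18), and at 24 h ACLY, which makes cytosolic acetyl-CoA, between -0.44 and -0.03 and ELOVL6, an elongase, between -0.21 and 0.33.

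From 4 to 24 h of hormone, 1 of the 27 genes was called in GRalpha (against 11% of all genes) and 3 were called in GRgamma (against 9.69%). A477T, 30iiB and E773R had 1 call each (against 5.14%, 12.4% and 4.21%). NSDHL was among them in each allele, as given above. With slide as a fixed block SREBF1 (-0.72, adjusted p = 0.029) and SC5D (1.01, adjusted p = 0.027) were also called in GRalpha, and AACS (0.80, adjusted p = 0.0087) and SC5D (0.97, adjusted p = 0.034) in 30iiB. In GRgamma AACS rose further by 0.95 (adjusted p = 0.027), from 9.70, 10.52, 10.79 and 10.71 at 4 h, and this call was lost without 24 h replicate 1 (0.91), 2 (0.96) or 4 (0.85) or 4 h replicate 1 (0.71), with adjusted p from 6.9e-07 to 0.17 over its alternatives. INSIG2 in GRgamma rose from 9.17, 9.47, 9.09 and 9.40 at 4 h to 9.70, 10.11, 10.02 and 10.14 at 24 h, without overlap (0.71, adjusted p = 0.043). It was lost without 24 h replicate 2 (0.67), 3 (0.70) or 4 (0.66) or 4 h replicate 1 (0.67), 3 (0.64) or 4 (0.75), with adjusted p from 0.0018 to 0.2 over its alternatives.

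Each variant's response was set against that of GRalpha, and the 4 comparisons at a time share the GRalpha arrays. At 2, 4 and 24 h none of the 27 genes was called in GRgamma (0.104%, 0.359% and 1.94% of all genes), A477T (0.462%, 1.42% and 5.04%) or 30iiB (0%, 0.0478% and 0.343%). The same held in E773R at 2 and 4 h (0.143% and 0.47%). By limma the genes at an unadjusted p under 0.05 numbered 0, 1 and 1 (GRgamma), 1, 0 and 0 (A477T), 1, 0 and 1 (30iiB), and 0 and 0 (E773R). In E773R at 24 h, 2 of the 27 were called (7.41%, against 1.75% of all genes), SREBF1 and FADS1, and the median difference over the 27 was 0.27.

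The SREBF1 response of E773R exceeded that of GRalpha by 1.24 (SE 0.34, 95% interval 0.56 to 1.92, adjusted p = 0.036), with -1.24 in GRalpha and -0.00 in E773R. With slide as a fixed block it was 1.33, and by the second probe 1.51. The call was lost without any 1 of 9 arrays, namely E773R 0 h replicates 2 (1.20) and 3 (1.09), E773R 24 h replicates 1 (1.25) and 2 (1.12), GRalpha 0 h replicates 1 (1.14) and 2 (1.07) and GRalpha 24 h replicates 1 (1.24), 3 (1.13) and 4 (1.27), with adjusted p from 0.0031 to 0.33 over its alternatives. GRgamma differed from GRalpha by 0.77 (95% interval 0.09 to 1.45, adjusted p = 0.49). The FADS1 response of E773R exceeded that of GRalpha by 1.12 (SE 0.31, 95% interval 0.51 to 1.73, adjusted p = 0.033) and by 1.16 with slide as a fixed block. That call was lost without E773R 0 h replicate 1 (1.12) or 3 (0.98), E773R 24 h replicate 2 (1.10) or 3 (1.00), GRalpha 0 h replicate 2 (1.13), 3 (1.03) or 4 (1.13) or GRalpha 24 h replicate 3 (1.00) or 4 (1.11), with adjusted p from 0.00026 to 0.46 over its alternatives. For SCD the excess of E773R was 0.94 (adjusted p = 0.41).

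Before hormone, most of the 27 genes stood lower in the variants than in GRalpha, and all 4 comparisons share the 4 GRalpha arrays at 0 h. The GRalpha responses above subtract these same 4 arrays. Falls in GRalpha and lower levels in the variants are therefore not separate results. The median difference was -0.24 (GRgamma), -0.51 (A477T), -0.38 (30iiB) and -0.41 (E773R), where all genes had -0.03, 0.02, -0.01 and -0.00. Below 0 were 20 of the 27 genes in GRgamma and E773R and 21 in A477T and 30iiB. Over the alternatives the 4 medians stayed below 0 (-0.54 to -0.15, -0.65 to -0.37, -0.46 to -0.25 and -0.67 to -0.32), and the -0.54 of GRgamma stood beside -0.20 for all genes under same-median scaling. In A477T 5 of 27 were called (18.5%, against 2.34% of all genes), in E773R 2 (7.41%, against 0.59%), in 30iiB 1 (3.7%, against 1.55%) and in GRgamma none (against 0.486%), with 1 at an unadjusted p under 0.05 by limma. GRalpha replicate 2 had the highest level of the 20 arrays at 0 h for HMGCS1 (14.36), SQLE (14.86), SCD (14.74) and FASN (14.71), and calls that were lost without it are named below.

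**Figure D4:**
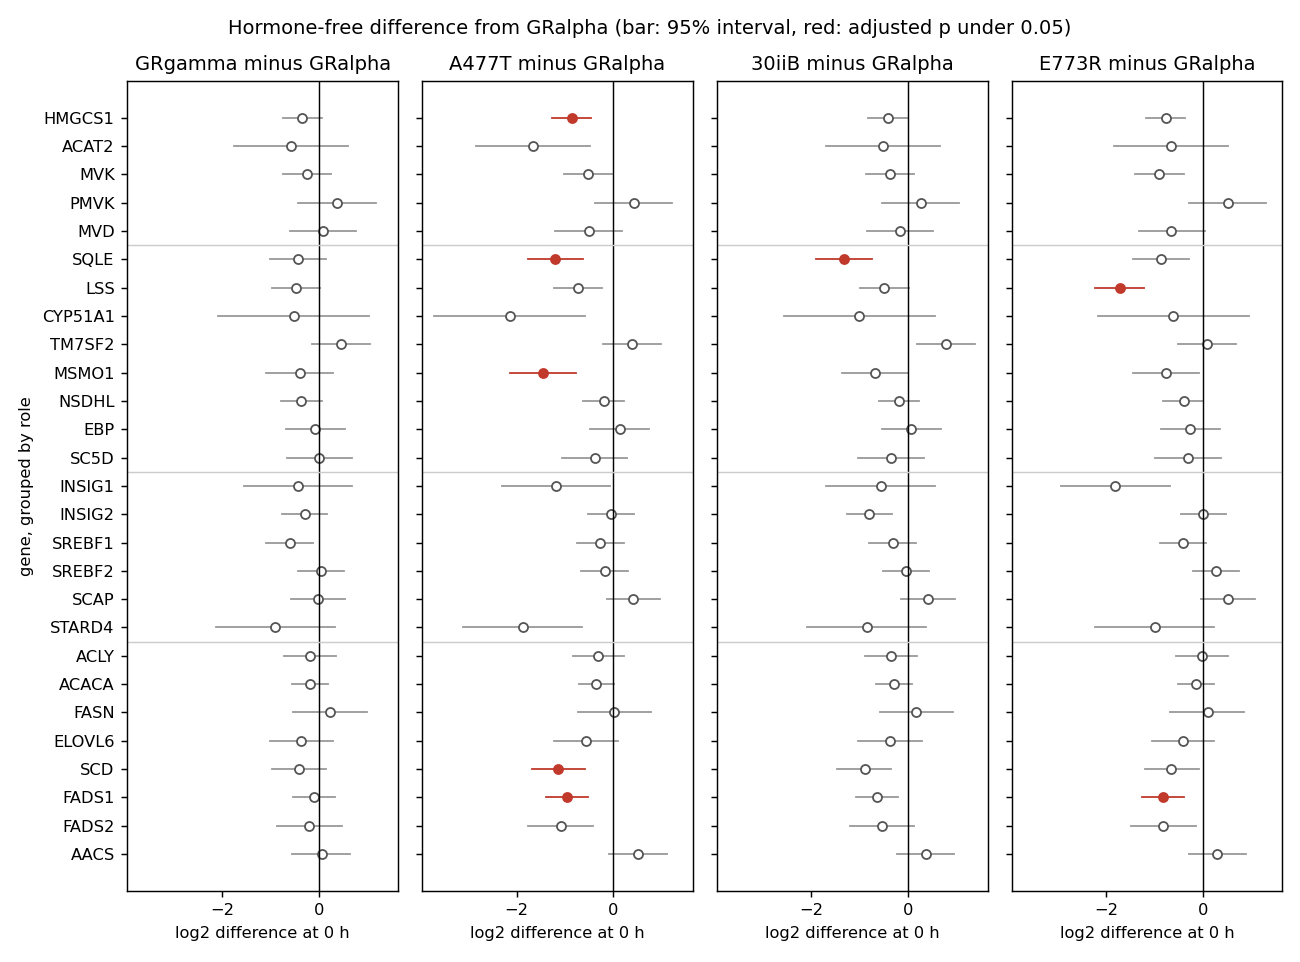
Log2 difference from GRalpha at 0 h for each of the 27 genes (rows) in the 4 variant alleles, with 95% intervals (n = 4 arrays a group); filled red points have an adjusted p under 0.05. Most points lie left of 0, with 5 filled in A477T, 2 in E773R and 1 in 30iiB.

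SQLE in GRalpha read 13.73, 14.86, 13.92 and 14.72 at 0 h, against 13.11, 12.54, 13.65 and 13.14 in A477T, all below the GRalpha arrays (-1.20, SE 0.29, adjusted p = 0.0074). The call was lost without A477T replicate 2 (-1.01) or GRalpha replicate 2 (-1.01) or 4 (-1.06), with adjusted p from 0.00011 to 0.08 over its alternatives. In 30iiB SQLE read 13.63, 12.48, 12.75 and 13.05, also all below (-1.33, adjusted p = 0.0028). GRgamma (13.89, 13.36, 14.05 and 14.24) and E773R (13.70, 13.26, 13.51 and 13.32) gave no call (-0.42 and -0.86). On shared slides SQLE was lower than in GRalpha in 7 of 7 pairs over the 4 alleles, with differences from -1.61 to -0.03.

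MSMO1 stood at 13.61, 13.66, 12.94 and 13.32 in GRalpha and at 12.39, 11.84, 11.54 and 11.92 in A477T, with no overlap (-1.46, adjusted p = 0.0062), and a second probe gave -1.02. HMGCS1 in A477T read 12.93, 12.71, 13.07 and 13.09, all below GRalpha (-0.86, adjusted p = 0.0062), a call lost without GRalpha replicate 2 (-0.68), with adjusted p from 2.1e-05 to 0.26 over its alternatives. SCD in A477T read 12.99, 12.76, 13.99 and 13.24, with 1 array inside the GRalpha range (-1.14, adjusted p = 0.0086), a call lost without A477T replicate 2 (-0.98) or GRalpha replicate 2 (-1.02), with adjusted p from 4.6e-06 to 0.23 over its alternatives. FADS1 in A477T read 11.30, 11.05, 11.57 and 11.42, all below GRalpha (-0.96, adjusted p = 0.0035).

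LSS was lower in E773R, where all arrays lay below those of GRalpha. They read 10, 10.29, 9.67 and 10.13 against 12.17, 11.88, 11.85 and 11.07 in GRalpha (-1.72, SE 0.25, adjusted p = 4.6e-06). The other LSS probes gave -1.13 and -0.87. FADS1 in E773R was also lower (-0.83, adjusted p = 0.048), a call lost without E773R replicate 1 (-0.83), 3 (-0.68) or 4 (-0.89) or GRalpha replicate 2 (-0.83), 3 (-0.73) or 4 (-0.83), with adjusted p from 0.00017 to 0.55 over its alternatives. It rests on the same E773R 0 h arrays as the FADS1 rise and response difference above. Both of those calls were also lost without E773R 0 h replicate 3 (0.64 and 0.98). CYP51A1 had a wide spread and was not called in A477T (-2.14, SE 0.78, adjusted p = 0.16). It was called with only the compared groups in the model (adjusted p = 0.023) and with the authors' series matrix values (-0.86, adjusted p = 0.002). STARD4 was detected on 4 of 4 GRalpha arrays and 0 of 4 A477T arrays at 0 h, so no size is given, and the main model did not call it. A call came with only the compared groups in the model (adjusted p = 0.0026) and with the authors' series matrix values (adjusted p = 0.014). Slide as a fixed block also called STARD4 (adjusted p = 0.044), and slide as a random block did not. INSIG1 in E773R read 7.19, 7.82, 6.82 and 7.33, against 9.80, 9.35, 8.64 and 8.60 in GRalpha, with no overlap (-1.81, adjusted p = 0.18). Once slide was blocked, INSIG1 was called (-2.26, adjusted p = 0.013), as were HMGCS1 (-0.88, adjusted p = 0.0092) and MSMO1 (-0.91, adjusted p = 0.02) in E773R, FADS2 in A477T (-1.20, adjusted p = 0.016), and SCD (-1.18, adjusted p = 0.0039) and INSIG2 (-0.88, adjusted p = 0.023) in 30iiB. Of the 9 markers of other cell types, CDH1 in 30iiB (1.64) was the 1 called at 0 h.

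The 27 genes were set beside 36 measured genes, of 50 listed, that handle the same lipids. At 24 h GRalpha had 7 of these called, GRgamma 6, A477T 3, 30iiB 8 and E773R 0, where limma left 5 at an unadjusted p under 0.05. These counts are to be read against the shares of all genes given above. In the isoprenoid list (5 measured), PDSS1, which makes the side chain of ubiquinone, was lower in GRalpha (-1.22), GRgamma (-1.29), A477T (-0.60) and 30iiB (-1.02), and COQ2, which attaches it, in GRalpha and 30iiB (-0.59 in both). In the LXR and efflux list (4 measured), the sterol exporter ABCG1 was lower in GRalpha (-1.26), A477T (-1.34) and 30iiB (-1.17), while ABCA1 was higher in 30iiB (1.30) and MYLIP, a ubiquitin ligase for lipoprotein receptors, in GRgamma (1.47).

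In the sterol transport list (8 measured), STARD5, a sterol carrier, was lower in GRalpha (-1.51), A477T (-1.40) and 30iiB (-1.25), and SCARB1, the HDL receptor, in GRalpha (-0.91). In the fatty acid supply list (15 measured), SCD5, a second stearoyl-CoA desaturase, was lower in GRalpha (-1.22), GRgamma (-0.90) and 30iiB (-0.85). The acyl-CoA synthetase ACSL5 was called higher in GRalpha, where it was detected on 0 of 4 arrays at 0 h and 3 of 4 at 24 h, and in 30iiB, where it was detected on 1 of 4 and 4 of 4. ACSL1 was higher in 30iiB (2.24), and ACACB, the mitochondrial acetyl-CoA carboxylase, and ELOVL1 in GRgamma (1.16 and 0.75), ACACB being detected on 2 of 4 arrays at 0 h. Of the SREBP cleavage and INSIG turnover list (4 measured), SYVN1, a ubiquitin ligase of the reticulum, was higher in GRgamma (0.88). At 0 h limma called none of the 36 in the 4 variants, with 3 to 7 at an unadjusted p under 0.05.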

How the data were processed

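Expression was measured on 80 single-colour Illumina bead arrays. The deposited table of the authors holds, per the file headers, a mean probe intensity with no normalisation stated and a detection p-value for each of 25204 probes. The deposited series matrix of the authors holds log2 values of 21241 probes, whose normalisation the sources used here do not state; 79 of its 80 columns correlated best with the same array here, and its column medians ran from 7.89 to 7.97. Of the probes, 19291 carried 1 gene symbol and 5913 none here.

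Intensities were background-corrected with normexp from the detection p-values (offset 16), then quantile-normalised and log2-transformed (neqc, limma 3.58.1, R 4.3.3). The 15392 probes detected at p under 0.05 on at least 4 arrays gave 12547 genes, each by its brightest probe. One limma model over 20 group means (60 residual df, prior df 5.54) gave 36 contrasts, with two-sided p-values adjusted by Benjamini-Hochberg over all genes. The model was checked on simulated data. Alternatives were slide or replicate number as a block, other scaling, background, filter and probe rules, the series matrix, models of only the compared groups, and each array left out. Always described were INSIG1, INSIG2, SREBF1, SREBF2, SCAP, HMGCS1, SQLE, FDFT1 (not measured), FASN, SCD and ACACA. To these the naming rule added the called genes with the largest rises and falls whose groups did not overlap, and the called differences of response; other called members, and related genes and uncalled members, were named after their values were seen. Members and lists were chosen with earlier results of these data known. Equal replicate numbers did not pair the samples (median correlation of deviations 0.0356 over 96 pairs), while arrays of 1 slide did deviate together (0.356, against -0.0451 for other slides). Arrays have no counts, so the number of arrays limits the precision. Figures used matplotlib 3.10.9.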

Additional observations from a re-analysis of the deposited data

Results flagged for a closer look

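Of 160 sets of 4 arrays (8 genes in 20 groups), 6 held 1 array far from the other 3, and chance gives about 1 in 20. SQLE read 13.88 on replicate 4 of 30iiB at 24 h, where the others read 13.17 to 13.21. NSDHL read 11.65 on replicate 2 of GRgamma at 0 h (others 11.42 to 11.44) and 12.11 on replicate 4 of GRgamma at 2 h (others 12.60 to 12.66). SCD read 13.29 on replicate 1 of 30iiB at 24 h (others 12.82 to 12.89) and 13.89 on replicate 3 of E773R at 2 h (others 13.44 to 13.48). AACS read 10.61 on replicate 2 of GRalpha at 0 h (others 9.52 to 9.64).

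The response at 24 h differed between E773R and GRalpha, by the test of the difference itself in limma, for SREBF1 (1.24, adjusted p = 0.036) and FADS1 (1.12, adjusted p = 0.033). The SREBF1 difference was positive under each of its 27 alternatives (0.91 to 1.38, adjusted p from 0.0031 to 0.33), and so was that of FADS1 (0.98 to 1.25, adjusted p from 0.00026 to 0.46).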

How the results depend on the processing

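Of 40 calls, 13 held under every alternative run, 27 were lost under at least 1 and 0 changed sign. Counts of the 27 genes called moved by over 1.5 times as follows, and the cause was not tested. Scaled to the same median, 18 calls were kept and the counts were 0 for NSDHL's 2 h comparisons (GRgamma, 30iiB), at 4 h in GRalpha, A477T and E773R, from 4 to 24 h in GRalpha and A477T, and for the E773R difference at 24 h; 1 at 24 h in A477T and E773R, at 0 h in E773R and from 4 to 24 h in GRgamma; 2 at 24 h in 30iiB; and 3 at 0 h in A477T. That scaling moved the median of all genes by -0.19 to 0.16, by over 0.1 in 13 of 36 comparisons, and each other alternative moved it by -0.03 to 0.06. With the authors' series matrix values all 40 calls were kept and counts rose to 1 (GRalpha and A477T 2 h, 30iiB difference at 24 h), 2 (GRgamma 2 h, 30iiB 4 h), 3 (A477T 4 h and 4 to 24 h), 4 (A477T 24 h, 30iiB 4 to 24 h), 5 (GRalpha 4 h, GRgamma 4 h and 4 to 24 h), 7 (GRalpha 4 to 24 h), 8 (30iiB 0 h), 9 (GRalpha and GRgamma 24 h) and 12 (A477T and E773R 0 h). With only the compared groups in a model, 20 calls were kept, with 0 at 2 h in GRgamma and 30iiB, at 4 h in A477T and E773R, from 4 to 24 h in A477T and E773R, at 0 h in 30iiB and for the E773R difference at 24 h, 1 in E773R at 24 h and 0 h, 2 in 30iiB at 24 h and 4 in GRalpha from 4 to 24 h. Slide as a fixed block gave 1 in GRalpha at 2 h, 2 in A477T from 4 to 24 h and at 4 h in GRalpha and GRgamma, 3 in 30iiB at 0 h and from 4 to 24 h and in GRalpha from 4 to 24 h, 6 in E773R at 0 h and 7 in GRalpha at 24 h, and as a random block the same but 5 in E773R at 0 h (correlation within slides 0.255).

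The replicate block gave 2 at 4 h in GRalpha and GRgamma and 3 in 30iiB at 0 h and GRalpha from 4 to 24 h, kept all 40 calls, and raised the calls over all genes from 19093 to 20294. Same-numbered arrays correlated over 0.1 in 42 of 96 pairs, so the numbers were not taken as pairs. The intensity trend, the mean of all probes, no background correction, no detection filter and the filter at 40 arrays each gave 2 in GRalpha at 4 h. The mean of all probes also gave 2 in 30iiB at 4 h, and no background correction gave 2 in 30iiB from 4 to 24 h. Without the pair of low-correlation arrays, chosen after seeing the data, E773R at 4 h had 0. Calls over all genes numbered 12551 when scaled to the same median, 39079 with the series matrix, 24732 and 24863 with slide as a fixed and random block, and 17034 with only the compared groups.

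Without 1 array at a time, counts ran from 3 to 5 (GRalpha and GRgamma 24 h), 2 to 3 (30iiB 24 h), 1 to 2 (E773R 24 h; GRalpha 4 h; GRalpha, A477T and 30iiB 4 to 24 h; E773R 0 h), 0 to 1 (GRalpha 2 h; A477T and E773R 4 h), 0 to 2 (GRgamma 4 to 24 h; E773R difference at 24 h), 1 to 3 (30iiB 0 h) and 2 to 5 (A477T 0 h). The filter at 40 arrays dropped STARD4.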
